A study of Homo sapiens with 4 samples.

Results

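The mitochondrial and nuclear genes of the respiratory chain were taken by name: symbols that start with MT-ND, MT-CO, MT-CYB, MT-ATP, NDUFA, NDUFB, NDUFC, NDUFS, NDUFV, SDHA to SDHD, UQCR, COX4 to COX8 or ATP5, without 2 antisense genes. This gave 116 of the 33538 genes in the files, 13 of the mitochondrial and 103 of the nuclear genome. Of the nuclear genes, 83 are structural subunits (37 of complex I, 4 of II, 8 of III, 17 of IV and 17 of V, with NDUFA4 counted in complex IV). The other 20 are 12 assembly factors, the ATP synthase inhibitor ATP5IF1, the factor ATP5S, the supercomplex factor COX7A2L, the NDUFA4 paralog NDUFA4L2, and 4 near-copies or read-through genes (UQCRHL, ATP5MGL, ATP5MF-PTCD1 and NDUFC2-KCTD14). Near-copies share sequence with their parent genes, so their counts are uncertain.

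The respiratory chain of the inner mitochondrial membrane is built from proteins of both genomes. Complexes I to IV pass electrons from NADH and succinate to oxygen, and complexes I, III and IV pump protons. Complex V, the ATP synthase, uses the proton gradient to make ATP. The mitochondrial genome encodes core subunits of complexes I, III, IV and V, the nuclear genome encodes the other subunits of these complexes, and complex II (succinate dehydrogenase) is wholly nuclear. Messenger RNAs of the mitochondrial genome are cut from long transcripts of each strand, so their levels are set by processing and stability as well as by transcription.

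They were measured by 3' single-cell RNA-seq in HCEC 1CT, a line derived from epithelium of the human colon that was made immortal by adding TERT and CDK4. The cells had been transduced with an shRNA against the tumour suppressor APC (shAPC) or a scrambled shRNA (shScr), were kept in puromycin, and were collected at day 3 or day 7. Every shRNA and day had 1 library, 4 in all, so no difference between groups has a replicate check and no test between groups was possible. Intervals printed below are 95% intervals for counting error only.

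Barcodes of at least 2000 genes were used: 880 in shScr day 3, 708 in shAPC day 3, 1462 in shScr day 7 and 2144 in shAPC day 7. Their median unique molecular identifiers (UMIs, counted RNA molecules) ranged from 22713.5 to 54957 per barcode, and the summed libraries held 39700634 to 52109797 UMIs. APC, in CPM (counts for each 1000000 nuclear-genome UMIs), read 17.1 against 6.36 with shAPC at day 3, and 21.7 against 6.38 at day 7, which was 37.2% and 29.4% of the control. The labelled epithelial type was not seen in its defining markers, since EPCAM had 1 to 3 UMIs and CDH1 0 or 1 UMI in a library, while mesenchymal VIM read 4007 to 5487 CPM. KRT8, KRT18, KRT19 and CLDN7 read between 1.92 and 19.5 CPM, and the blood and endothelial markers PTPRC and PECAM1 had at most 1 UMI. Pairs of libraries shared 2 to 25 barcode sequences. The file headers name Cell Ranger 3.0.2 for the shScr and 3.0.0 for the shAPC libraries, so the program's version and the shRNA cannot be told apart.

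The promoters are shown first, because the nuclear members have known regulators in common: NRF1 and GABPA, which act on many respiratory genes, and YY1. RefSeq promoters (GRCh38.p14, 250 bases before to 50 after the gene start) were matched for 82 of the 103 nuclear members. The NRF1 motif of 10 bases, searched like the others on both strands, was in 20 of the 82 (24.4%) against 6.28% of all 27305 promoters. GABPA's CCGGAAG was in 23 (28.0%) against 10.7%, and YY1's AANATGGCG was in 17 (20.7%) against 3.37%. At least 1 of the 3 was in 46 of 82 (56.1%) against 17.9% of all. A match is a description of the letters and does not show binding. Complex II is shown because all of its subunits are nuclear: SDHA has 4 NRF1 motifs in its upstream sequence, SDHD has NRF1 and GABPA motifs, and SDHB has GABPA and YY1 motifs. The YY1 motif of SDHB is not printed, and SDHC was not matched to a promoter. COX7C, which is also named below, has none of the 3 motifs. NDUFA9, NDUFA3 and ATP5ME are shown because they are named below for their levels. Windows are 30 bases on the gene's strand, with the motif in capitals.
SDHA, NRF1, chr5:218144-218173, plus strand: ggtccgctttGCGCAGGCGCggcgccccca
SDHA, NRF1, chr5:218193-218222, plus strand: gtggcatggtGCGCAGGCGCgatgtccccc
SDHA, NRF1, chr5:218242-218271, plus strand: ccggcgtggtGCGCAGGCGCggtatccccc
SDHA, NRF1, chr5:218290-218319, plus strand: cccggtgtggtGCGCAGGCGCagtctgcgc
SDHD, NRF1, chr11:112086753-112086782, plus strand: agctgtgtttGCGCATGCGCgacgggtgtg
SDHD, GABPA, chr11:112086785-112086814, plus strand: ccgcctctcgaCTTCCGGttcacccagcat
SDHB, GABPA, chr1:17054142-17054171, minus strand: cacccgggaaaCCGGAAGccgcctcccact
NDUFA9, NRF1, chr12:4649024-4649053, plus strand: ttcttggttaGCGCTTGCGCagacaggcga
NDUFA3, NRF1, chr19:54102675-54102704, plus strand: ctgcgcgagtGCGCACGCGCaggctccgaa
ATP5ME, NRF1, chr4:674476-674505, minus strand: cgcagcaactGCGCAGGCGCagccgatgat

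The 13 mitochondrial genes made up 3.78% of UMIs in shScr day 3, 3.75% in shAPC day 3, 4.48% in shScr day 7 and 5.19% in shAPC day 7. The 103 nuclear members made up 2.22%, 2.41%, 2.13% and 2.17% of the UMIs of the nuclear genome in the same order. The mitochondrial share was thus highest in shAPC day 7, and the nuclear share was highest in shAPC day 3. There were 1.77, 1.61, 2.20 and 2.52 mitochondrial UMIs for each UMI of a nuclear member.

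Per nuclear-genome UMI, mitochondrial RNA in shAPC against shScr differed by log2 -0.014 at day 3 and by 0.22 at day 7. Between day 3 and day 7 it was higher by 0.25 in shScr and by 0.49 in shAPC. The nuclear members' sum was higher in shAPC by 0.12 at day 3 and by 0.025 at day 7, and it was lower at day 7 than at day 3 by log2 -0.059 in shScr and -0.15 in shAPC. The balance of mitochondrial over nuclear members therefore differed by -0.13 at day 3 and 0.20 at day 7 between the shRNAs, and by 0.31 (shScr) and 0.65 (shAPC) between days. These mitochondrial differences depended on the depth of the barcodes used. In barcodes of 10000 to 50000 UMIs mitochondrial RNA was higher in shAPC by 0.20 on both days, and higher at day 7 by 0.22 in shScr and 0.21 in shAPC, so that the values were of like size within each of these pairs. Leaving out the 5% of barcodes with the most UMIs turned the day 3 value to 0.055.

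A limit of 5% mitochondrial UMIs, a common filter for cells, left out unequal parts of the libraries. It took out 115 of 880 barcodes (13.1%) in shScr day 3, 127 (17.9%) in shAPC day 3, 520 (35.6%) in shScr day 7 and 1220 (56.9%) in shAPC day 7. Under the limit the mitochondrial difference between days was 0.039 in shScr and 0.23 in shAPC, and that between shRNAs was -0.044 at day 3 and 0.15 at day 7. The nuclear sum under the limit differed by 0.13 at day 3 and by -0.0012 at day 7, where the interval from -0.0064 to 0.0040 held 0. The balance of mitochondrial over nuclear members between the shRNAs was -0.17 at day 3 and 0.15 at day 7 under the limit. In barcodes over the limit it was -0.15 and -0.16.

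**Figure D1:**
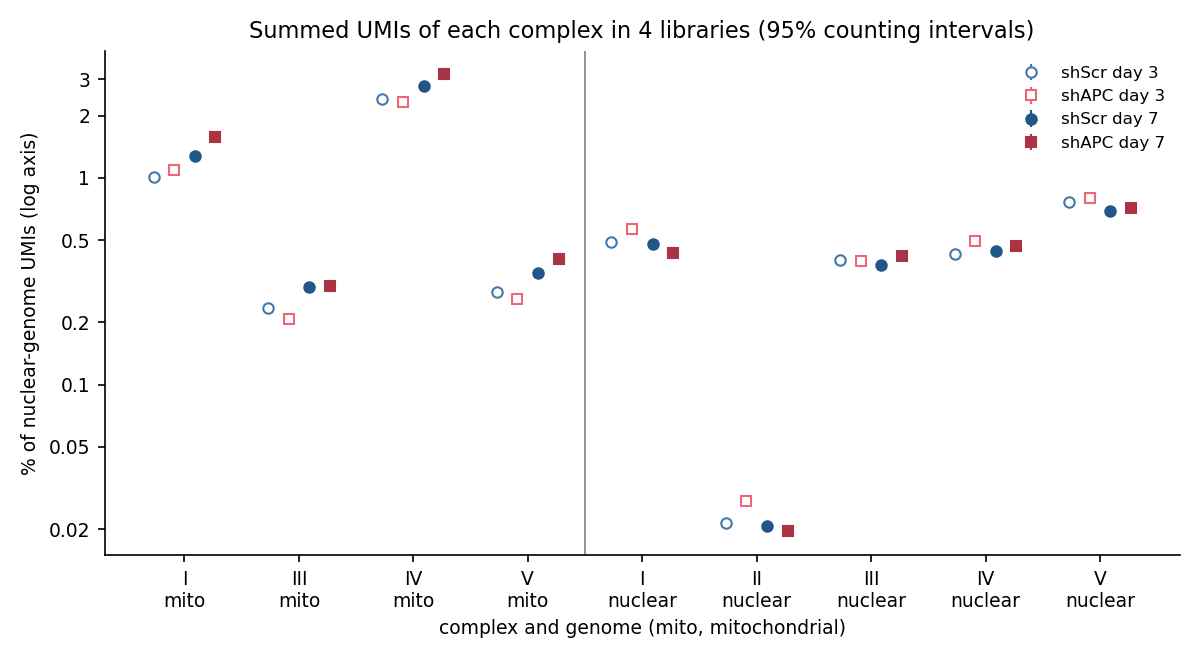
Summed UMIs of each complex, as a percent of nuclear-genome UMIs on a log axis, for mitochondrial (left) and nuclear (right) genes in the 4 libraries; bars, mostly smaller than the points, are 95% counting intervals. In mitochondrial complex I the 4 libraries read 1.01, 1.09, 1.27 and 1.58%, while in nuclear complex I the highest was shAPC day 3 at 0.565%.

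The complexes differed in these sums (the plot of summed UMIs by complex). Nuclear complex I subunits, which surround the mitochondrial core of the NADH dehydrogenase, were higher in shAPC at day 3 by log2 0.20 and lower at day 7 by -0.14. Complex II was higher at day 3 by 0.34 and lower at day 7 by -0.070. Complex III, the cytochrome c reductase, differed by -0.018 at day 3 and 0.15 at day 7. Complex IV, the cytochrome c oxidase, was higher by 0.21 and 0.079, and complex V was higher by 0.073 and 0.049. Of the mitochondrial parts, complex I was higher in shAPC on both days (0.12 and 0.31), MT-CYB of complex III was lower at day 3 (-0.17) and read 0.0084 at day 7, and complexes IV and V were lower at day 3 (-0.048 and -0.11) and higher at day 7 (0.20 and 0.23).

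Many of these directions depend on the scale. In shAPC day 3 the median nuclear gene was 0.27 (log2) higher than in shScr, with 79.4% of 5321 genes above 0, beside cytosolic ribosomal protein genes that were lower by -0.21 in sum. With library factors of TMM or DESeq2, which follow the typical gene, the nuclear sum was -0.20 or -0.23 at day 3 and -0.043 or -0.063 at day 7, the reverse of the signs above. At day 3 these factors also turned nuclear complexes I (-0.12 and -0.15), IV (-0.10 and -0.14) and V (-0.25 and -0.28) and mitochondrial complex I (-0.20 and -0.23), and complex II read 0.024 and -0.0083. At day 7 the signs held for nuclear complexes I (-0.20 and -0.22), II (-0.14 and -0.16) and III (0.079 and 0.059). The mitochondrial sum in shAPC against shScr was -0.33 and -0.37 at day 3, further from 0 than the -0.014 above, and 0.16 and 0.14 at day 7. At day 7 the signs did not hold for nuclear complex V (-0.018 and -0.038), for MT-CYB (-0.059 and -0.079), or under DESeq2 for nuclear complex IV (-0.0080). From day 3 to day 7 the mitochondrial sum stayed higher in shScr (0.23 and 0.22) and in shAPC (0.72 and 0.73), while the nuclear sum in shAPC turned to 0.074 and 0.080.

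For single genes the scale was therefore set by the median gene. Below, a relative value is a gene's log2 ratio of (CPM + 1), with CPM scaled to nuclear-genome UMIs, minus the median over all nuclear genes that reached 20 CPM in either library. The medians were 0.27 and -0.032 for shAPC against shScr at day 3 and day 7, and 0.029 in shScr and -0.29 in shAPC for day 7 against day 3. The 4 comparisons use the same 4 libraries, so that each shares a library with 2 of the others.

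Measured this way the nuclear members lay close to the typical gene. At day 3, 35 of 85 had a higher and 50 a lower ratio of shAPC to shScr than the median gene (median -0.044), and at day 7, 32 of 84 were higher and 52 lower (median -0.094). Between days, 39 of 84 were higher and 45 lower in shScr (median -0.025), and 36 of 85 were higher and 49 lower in shAPC (median -0.087). The other 18 or 19 nuclear members had less than 20 CPM in both libraries and entered no count.

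Few members passed 1.5-fold relative to the median gene. For shAPC against shScr at day 3 this was 1 member higher (5.13% of all genes were) and 0 lower (4.75%), and at day 7 it was 1 higher (5.82%) and 1 lower (7.39%). For day 7 against day 3 it was 0 higher (1.78%) and 4 lower (4.22%) in shScr, and 3 higher (7.09%) and 1 lower (9.01%) in shAPC. The members' shares were at or below the background in every case except the 4 lower genes of 84 in shScr, which lay close to it. Past 2-fold there was 1 member, COX7C, higher at day 7 (1.38% of all genes), and 0 members lower at day 7 (1.98%). At day 3 there were 0 higher (1.84%) and 0 lower (0.977%). Between days there were 0 higher (0.275%) and 0 lower (0.89%) in shScr, and 0 higher (0.801%) and 0 lower (2.72%) in shAPC.

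Under the 5% limit the counts past 1.5-fold were 0 higher (6.2% of all genes) and 0 lower (5.07%) at day 3, and 1 higher (4.13%) and 0 lower (5.2%) at day 7. Between days they were 0 higher (2.22%) and 4 lower (4.4%) in shScr, and 3 higher (6.76%) and 1 lower (7.8%) in shAPC.

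**Figure D2:**
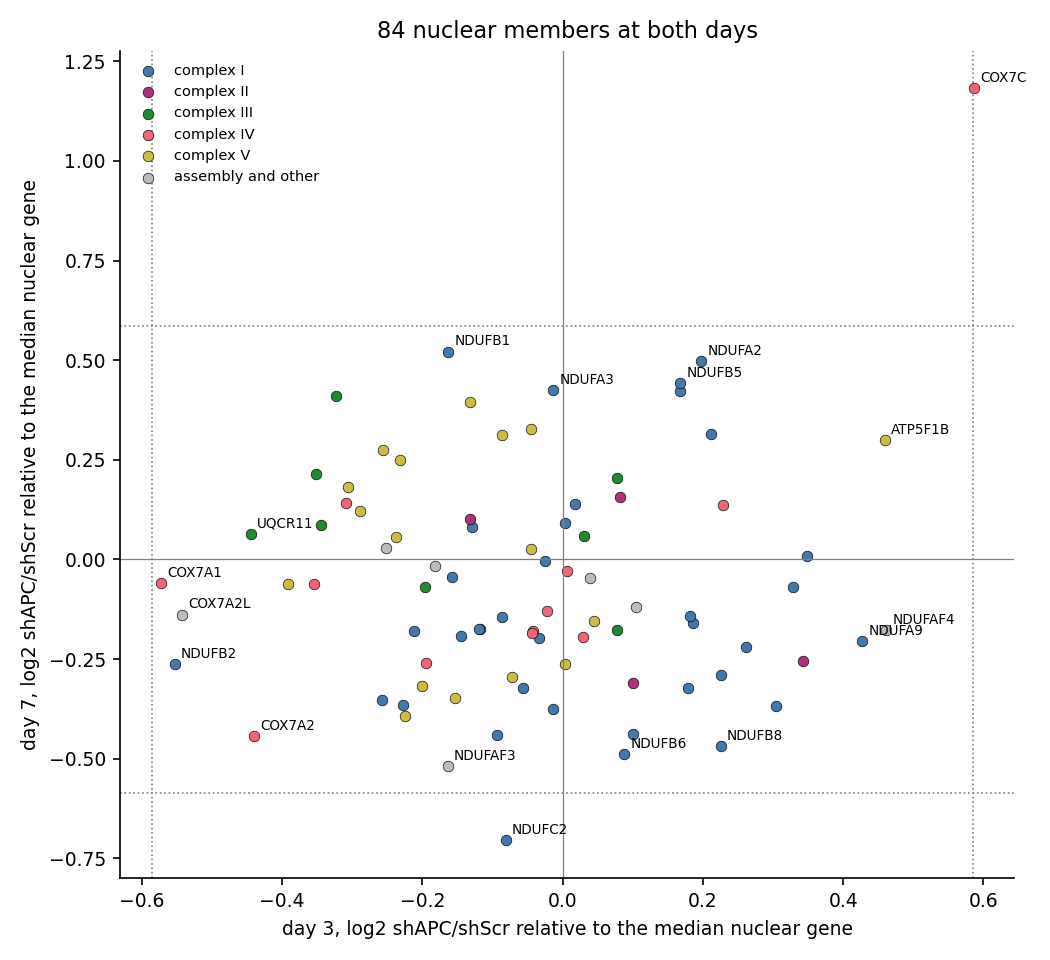
Log2 ratio of shAPC to shScr relative to the median nuclear gene at day 3 (x) and day 7 (y) for the 84 nuclear members measured at both days, coloured by complex; dotted lines mark 1.5-fold. COX7C alone lies past 1.5-fold on both days, at day 3 just past it, 13 members are above 0 at both days, 31 are below at both and 40 have opposite signs.

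COX7C, a small nuclear subunit of complex IV (chr5:86617928-86620962, plus strand, hg38), stood furthest from the rest. It had 20732 UMIs (499 CPM) in shScr day 3, 34478 (902 CPM) in shAPC day 3, 18989 (487 CPM) in shScr day 7 and 53488 (1083 CPM) in shAPC day 7. Both shAPC libraries were above both shScr libraries. In log2, shAPC was above shScr by 0.86 at day 3 (0.83 to 0.88) and by 1.15 at day 7 (1.13 to 1.18), or 0.59 and 1.18 relative to the median gene. The day 3 value lay just past 1.5-fold (0.585), and under the 5% limit it was 0.56, so that no member then passed. On the scale of nuclear-genome UMIs the ratios under the limit were 0.84 and 1.03. These 2 comparisons share no library, but the version of Cell Ranger differs in both.

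Among the other members highest at day 3 were NDUFAF4, a complex I assembly factor (relative 0.46), ATP5F1B, the catalytic beta subunit of the ATP synthase (0.46), and the complex I subunit NDUFA9 (0.43). ATP5F1B had 204 CPM in shScr day 3, 338 in shAPC day 3, 154 in shScr day 7 and 186 in shAPC day 7, so that shAPC was above shScr on both days. NDUFA9 had 25.1, 41.3, 25.3 and 21.3 CPM, with shAPC day 3 above the other 3 libraries. The lowest at day 3 were COX7A1 (-0.57), the complex I subunit NDUFB2 (-0.55), COX7A2L (-0.54), the complex III subunit UQCR11 (-0.44) and COX7A2 (-0.44).

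At day 7 the lowest member was the complex I subunit NDUFC2, with 114 CPM in shScr day 3, 129 in shAPC day 3, 134 in shScr day 7 and 80.0 in shAPC day 7. In log2, shAPC differed from shScr by 0.19 at day 3 (0.13 to 0.25) and by -0.74 at day 7 (-0.80 to -0.68). Next came the assembly factor NDUFAF3 (relative -0.52), the complex I subunits NDUFB6 (-0.49) and NDUFB8 (-0.47), and COX7A2 (-0.44), which was low on both days. The highest after COX7C were 4 complex I subunits, NDUFB1 (0.52), NDUFA2 (0.50), NDUFB5 (0.44) and NDUFA3 (0.43). Of the 36 complex I subunits measured at day 7, 10 were above and 26 below the median gene, although 4 of the 5 highest and 3 of the 5 lowest members are its subunits.

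The subunits of complex II differed in their pattern. SDHB, the iron-sulphur subunit, had 54.6 CPM in shScr day 3, 83.8 in shAPC day 3, 56.8 in shScr day 7 and 46.4 in shAPC day 7. SDHD, a membrane anchor, had 30.6, 39.8, 30.2 and 23.6 CPM. For both genes shAPC day 3 was the highest and shAPC day 7 the lowest library. SDHA, the flavoprotein, had 33.9, 43.5, 26.8 and 29.3 CPM, and SDHC, the other anchor, had 95.6, 105, 92.6 and 97.2 CPM, with shAPC above shScr on both days. The log2 ratios at day 7 were -0.29 (-0.38 to -0.21) for SDHB, -0.35 (-0.47 to -0.24) for SDHD, 0.13 (0.014 to 0.25) for SDHA and 0.071 (0.0084 to 0.13) for SDHC. Under the 5% limit SDHA read 0.012 (-0.14 to 0.17) and SDHC -0.090 (-0.17 to -0.0087) at day 7, so that neither was then higher in shAPC beyond counting error, while SDHB (-0.31) and SDHD (-0.32) stayed lower. Relative to the median gene the 4 subunits read 0.082 (SDHA), 0.34 (SDHB), -0.13 (SDHC) and 0.10 (SDHD) at day 3.

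Between days, the 3 lowest nuclear members in shScr were NDUFB1 (relative -0.93), the ATP synthase subunit ATP5ME (-0.87) and NDUFA3 (-0.81), with COX7A1 (-0.72) the other gene past 1.5-fold. ATP5ME had 857 CPM in shScr day 3, 941 in shAPC day 3, 479 in shScr day 7 and 616 in shAPC day 7. NDUFB1 had 357, 384, 191 and 269 CPM, and NDUFA3 had 220, 262, 127 and 167 CPM. For all 3 both day 7 libraries were below both day 3 libraries. Relative to the median gene the values in shAPC were -0.32 for ATP5ME, -0.22 for NDUFB1 and -0.36 for NDUFA3, none past 1.5-fold, and the comparison in shAPC shares no library with that in shScr. Highest in shScr were the complex I subunits NDUFS4 (0.43), NDUFB8 (0.36) and NDUFA5 (0.33).

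In shAPC the lowest from day 3 to day 7 were NDUFA9 (relative -0.64), ATP5F1B (-0.57) and SDHB (-0.55), and the highest were the complex III subunits UQCRB (0.73) and UQCRH (0.72) and the complex IV subunit COX4I1 (0.68). UQCRB had 702 CPM in shScr day 3, 676 in shAPC day 3, 709 in shScr day 7 and 922 in shAPC day 7, and COX4I1 had 659, 641, 778 and 839 CPM. In this comparison the cytosolic ribosomal protein genes were also higher (relative median 0.62, 75 of 83 above the median gene), and their part in the result was not tested.

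The tissue-restricted paralogs of complex IV were at or near 0, with 1 exception. COX6A2, a heart and muscle form, had 0 UMIs in each library, where a count of 0 still allows a few UMIs. COX4I2 had 0, 0, 1 and 1 UMIs, COX7B2 0, 0, 0 and 1, COX6B2 8, 7, 4 and 3, and COX8C 6, 18, 9 and 19. Their common forms COX4I1, COX6A1 and COX6B1 had 10535 to 41466 UMIs in a library. The exception was COX7A1, known as a heart and muscle form, with 182 CPM in shScr day 3, 147 in shAPC day 3, 112 in shScr day 7 and 105 in shAPC day 7 beside 437 to 607 CPM of COX7A2. NDUFA4L2, the hypoxia-linked paralog of NDUFA4, had 53 to 87 UMIs against 17521 to 19165 of NDUFA4.

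Length was a property that the names did not use. By the canonical transcript of GENCODE 44, the nuclear members tested at day 3 had a median of 758 bases against 2889.5 for all nuclear genes. Of the 11 members below 500 bases, 1 was above and 10 were below the median gene in shAPC against shScr at day 3, while 12 of all 62 genes of that length were above and 50 below. For day 7 against day 3 in shScr it was 3 above and 8 below, against 10 and 47 of all 57 genes. At day 7 between shRNAs it was 3 above and 8 below, with 38 and 23 of 61 genes. For day 7 against day 3 in shAPC it was 4 above and 7 below, with 40 and 25 of 65 genes. Of the 4 members past 1.5-fold lower in shScr, ATP5ME (303 bases), NDUFB1 (317) and COX7A1 (340) are in this class, and NDUFA3 (945) is not. Over all nuclear genes the Spearman correlation of length with the relative ratio at day 3 was 0.023, and -0.0034 without cytosolic ribosomal protein genes. Of those ribosomal genes 80 of 83 were below the median gene, and their part in the short class was not counted. Over the members the correlation was 0.25. The length bounds were set after the values were seen.

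The members were also set apart by promoter motif. With the NRF1 motif the median relative ratio of shAPC to shScr was 0.017 at day 3 (16 genes) and 0.010 at day 7, and without it -0.086 (55 genes) and -0.12 (54 genes). With the YY1 motif 13 were above and 4 below the median gene at day 3 (median 0.078), and 3 above and 13 below at day 7 (median -0.19). Without it the counts were 18 above and 36 below at day 3, and 23 above and 31 below at day 7. With GABPA's motif 8 were above and 14 below at day 3, and 9 above and 13 below at day 7. YY1 itself had 2378, 2003, 2911 and 2793 UMIs in the 4 libraries. NRF1 itself had 96 to 131 UMIs and GABPA 379 to 696, too low for the 20 CPM bound.

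The make-up of the mitochondrial RNA was as follows. MT-CO2 and MT-CO1, core subunits of complex IV, held 24.0 to 27.8% and 22.0 to 24.2% of mitochondrial UMIs. MT-ND4 held 11.3 to 13.2% and MT-CO3 9.61 to 11.1%, while MT-ND3 held 3.46%, 3.62%, 2.21% and 3.09%. MT-ND6, the one member on the other strand (chrM:14149-14673, minus), held 0.172 to 0.222%, and MT-ATP8 0.0146 to 0.0536%. The 3' method primes on poly(A) tails, MT-ATP8 (chrM:8366-8572) overlaps MT-ATP6 (chrM:8527-9207), and MT-ND4L (chrM:10470-10766) overlaps MT-ND4 (chrM:10760-12137), so that the counts of these pairs are uncertain.

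**Figure D3:**
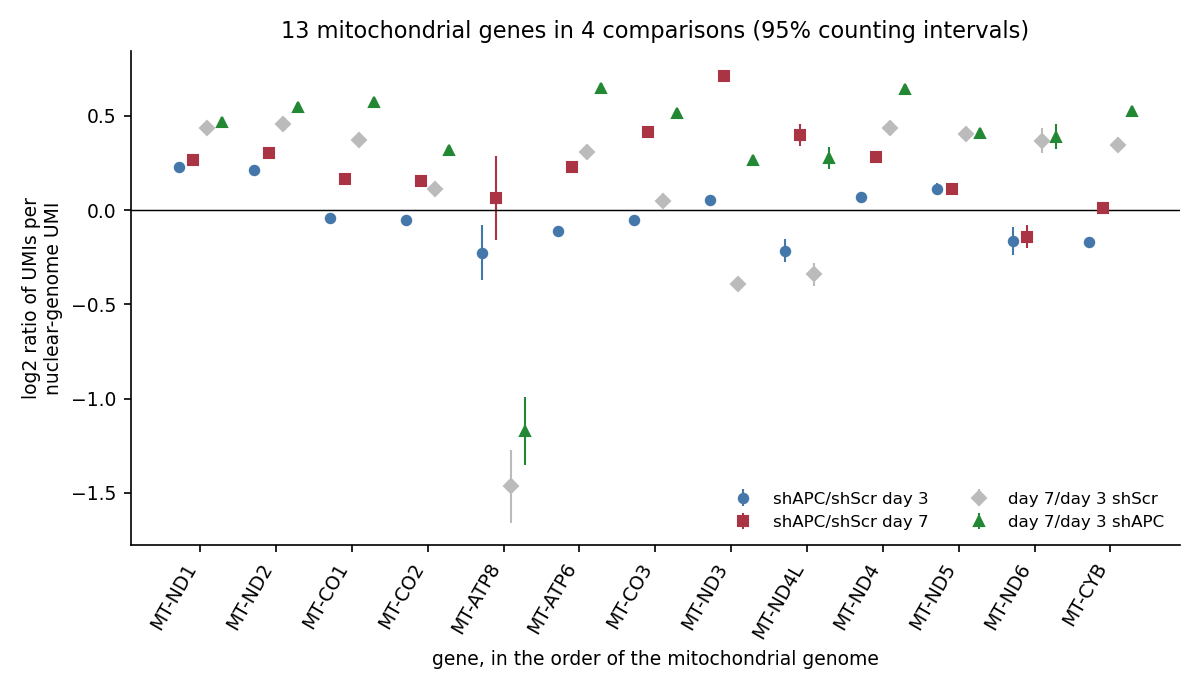
Log2 ratio of UMIs per nuclear-genome UMI for the 13 mitochondrial genes in 4 comparisons, with 95% counting intervals; 1 library a group. At day 7, 12 of 13 genes are higher in shAPC than in shScr (10 of 13 with TMM or DESeq2 factors), and MT-ATP8 is the gene that is lower at day 7 in both shRNAs. The count of MT-ATP8 is uncertain because it overlaps MT-ATP6.

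At day 3, 5 of the 13 genes were higher and 8 lower in shAPC than in shScr, each with an interval off 0, while with TMM or DESeq2 factors 0 were higher and 13 lower. MT-ND1 (0.23) and MT-ND2 (0.21) were the highest, and MT-ATP8 (-0.23), MT-ND4L (-0.22), MT-CYB (-0.17) and MT-ND6 (-0.16) the lowest. At day 7, 12 were higher and 1 lower, with 10 intervals above 0 and 1 below (the plot of ratios by mitochondrial gene), and with either factor 10 were higher and 3 lower. MT-ND3, a complex I subunit, was the highest (0.71), ahead of MT-CO3 (0.41) and MT-ND4L (0.40), while MT-ND6 was lower (-0.14, -0.20 to -0.081). Under the 5% limit the range at day 7 was -0.061 to 0.68.

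From day 3 to day 7, 10 of the 13 were higher and 3 lower in shScr, and 12 were higher and 1 lower in shAPC. MT-ND4 was higher by 0.43 in shScr and 0.64 in shAPC, and MT-CO1 by 0.37 and 0.57. MT-ND3 had 1359 CPM in shScr day 3, 1409 in shAPC day 3, 1037 in shScr day 7 and 1694 in shAPC day 7, so that its 2 day comparisons had opposite signs (-0.39 and 0.27). MT-ATP8 had 876, 688, 298 and 395 UMIs, so that day 7 was lower in shScr (log2 -1.46, -1.66 to -1.27) and in shAPC (-1.17, -1.35 to -0.99). MT-ATP8 was the one mitochondrial gene lower at day 7 under both shRNAs. Its count is uncertain because of the overlap with MT-ATP6, which the counting intervals do not cover. The sum of MT-ATP8 and MT-ATP6 was higher at day 7 in shScr (0.30) and in shAPC (0.64).

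Single barcodes let the genomes be compared within cells, as far as a barcode is a cell; no doublet caller was run. The mitochondrial percent of UMIs and the nuclear members' percent of nuclear-genome UMIs, whose denominators overlap, had Spearman correlations of -0.19 in shScr day 3 (880 barcodes), -0.26 in shAPC day 3 (708), -0.27 in shScr day 7 (1462) and 0.015 in shAPC day 7 (2144). Under the 5% limit they were -0.23, -0.34, -0.28 and -0.19, and over it 0.12, 0.28, 0.038 and 0.14. The mitochondrial percent itself correlated with UMIs per barcode at -0.029, -0.36, -0.37 and -0.59, and with depth held constant by ranks the values were -0.20, -0.29, -0.30 and -0.050. These are weak relations, and they are given as descriptions.

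**Figure D4:**
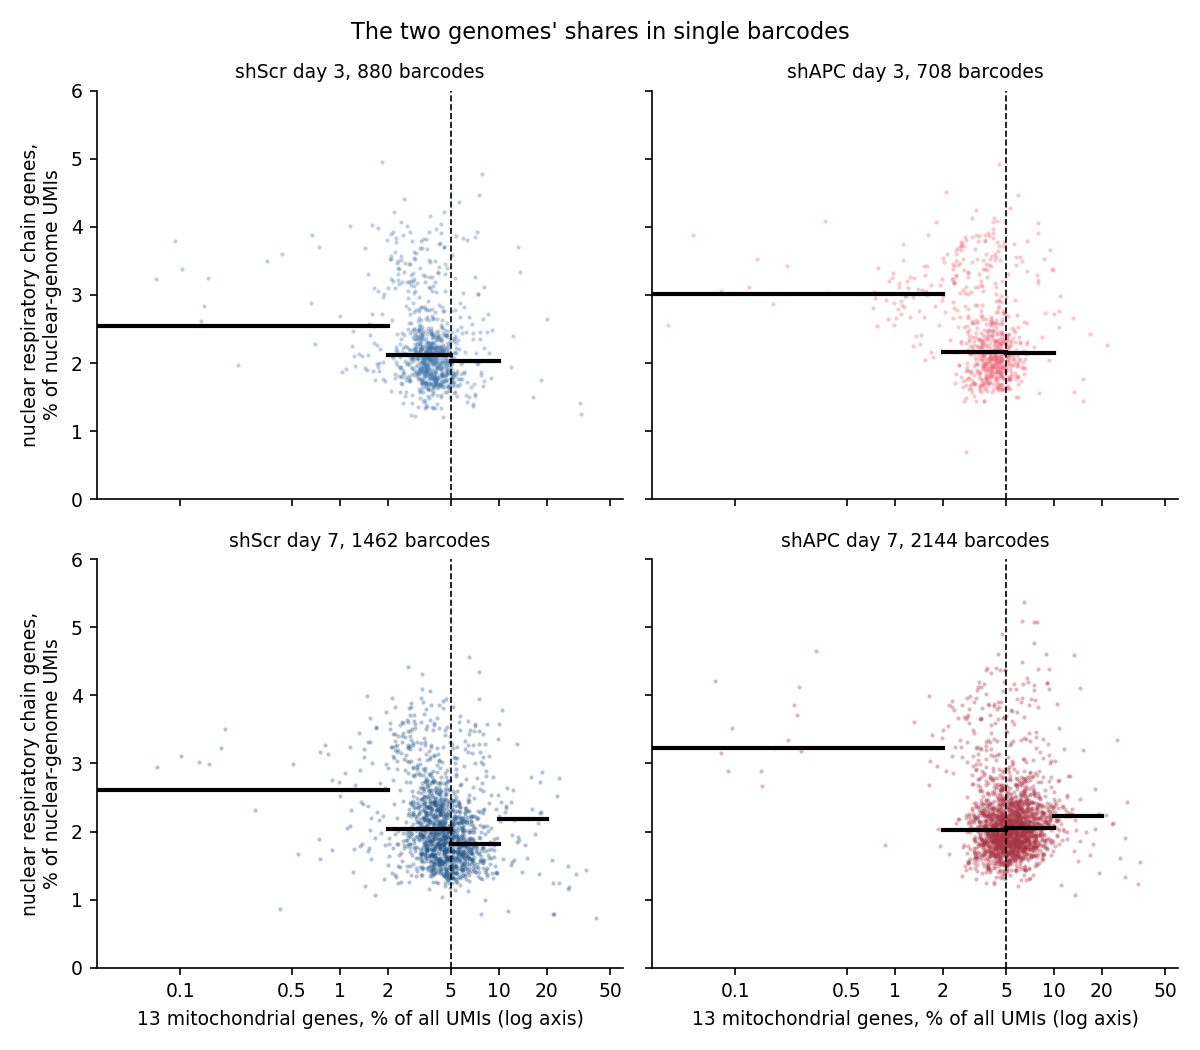
Each point is a barcode, with the mitochondrial percent of UMIs (x, log axis) against the nuclear members' percent of nuclear-genome UMIs (y); the dashed line is the 5% limit and black bars are medians in bins of mitochondrial share with at least 20 barcodes. Medians under 2% mitochondrial UMIs are 2.54, 3.02, 2.60 and 3.23%, above those of 2 to 5%.

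By bins, barcodes with under 2% mitochondrial UMIs (53, 66, 63 and 24 barcodes) had the most nuclear RNA of the chain, 2.63%, 2.96%, 2.68% and 3.10% of nuclear-genome UMIs. Those of 2 to 5% had 2.22%, 2.36%, 2.18% and 2.19%, and those of 5 to 10% had 2.10%, 2.20%, 1.93% and 2.12%. In the 6, 8, 35 and 62 barcodes of 10 to 20% the share was 2.31%, 2.16%, 2.18% and 2.33%, above that of 5 to 10% in 3 of the 4 libraries. Just under the limit, at 4 to 5%, the share was 2.12%, 2.24%, 1.97% and 2.09%. Just over it, at 5 to 6%, it was 2.08%, 2.13%, 1.88% and 2.06%. Comparing all barcodes over with all under the limit, 76 of 84, 76 of 85, 78 of 84 and 71 of 85 nuclear members were lower relative to the median gene (median -0.26, -0.26, -0.28 and -0.26). Above 20% mitochondrial UMIs there were 1 to 13 barcodes in a library, with a median ribosomal protein share of 9.42 to 15.4%.

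MT-ND6 was the one of the 13 mitochondrial genes whose share differed most across the limit at day 7. Its part of mitochondrial UMIs was 0.184% over against 0.251% under the limit in shScr day 7, and 0.142% against 0.217% in shAPC day 7 (log2 -0.45 and -0.61). These parts are small, with 1443 UMIs over and 2613 under the limit in shScr day 7, and 2314 and 2347 in shAPC day 7. The cause was not tested. At day 3 the log2 values were 0.066 and -0.00041.

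Within a genome the complexes varied together from barcode to barcode. The 6 pairs of mitochondrial complexes correlated at 0.62 to 0.86 in shScr day 3, 0.76 to 0.87 in shAPC day 3, 0.67 to 0.86 in shScr day 7 and 0.62 to 0.84 in shAPC day 7. The 10 pairs of nuclear complexes had medians of 0.60, 0.67, 0.57 and 0.54, with the lowest values in pairs of complex II, which has the fewest UMIs. The 20 pairs across genomes had medians of -0.16, -0.20, -0.13 and 0.015. Subunits of the same complex in different genomes correlated weakly or negatively. For complex I the values were -0.066, -0.25, -0.23 and -0.026, and for complex IV -0.19, -0.26, -0.26 and -0.042. The nuclear members' share correlated at 0.66, 0.74, 0.78 and 0.56 with that of the genes for the mitochondrial ribosome and at -0.34, -0.44, -0.52 and -0.27 with that of the cytosolic ribosome. All of these share the library and the denominator of nuclear-genome UMIs.

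**Figure D5:**
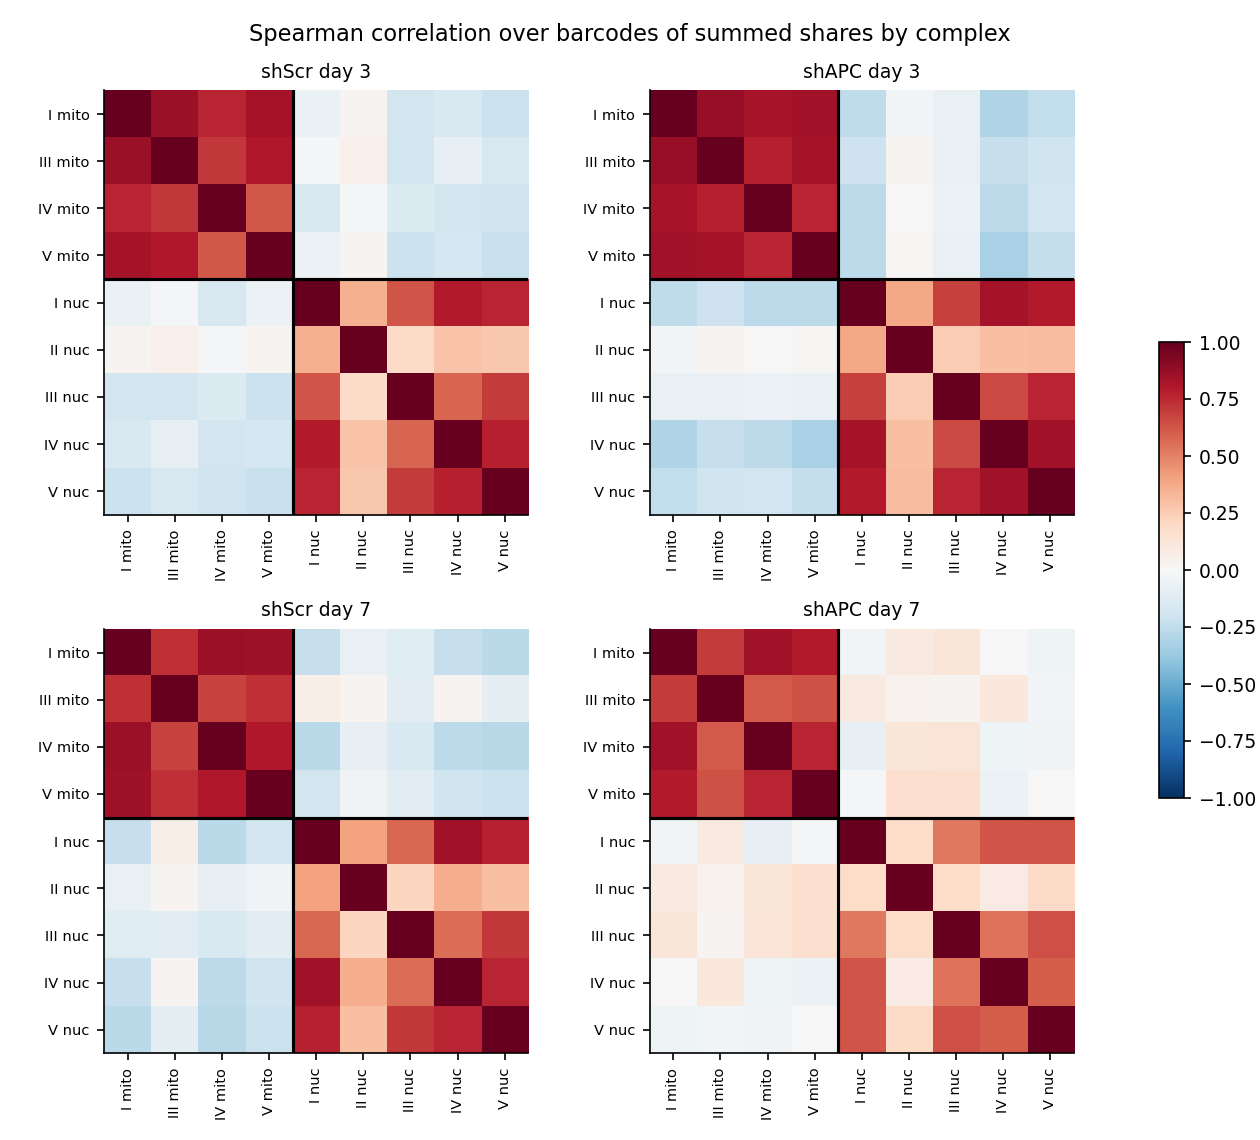
Spearman correlation over barcodes between the summed shares of 4 mitochondrial and 5 nuclear complexes (percent of nuclear-genome UMIs) in each library; red is positive, blue negative, and black lines part the genomes. The blocks within a genome are red in all 4 libraries, and the blocks across genomes lie between -0.32 and 0.17.

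The scatter of barcodes showed a group of points with a nuclear share above the bulk of each library. These barcodes were described by 8 genes that are no members, PSMB1, PSMB3, PSMB6, PRDX4, CYBA, CD63, TIMP1 and GSTP1, which were chosen after the values were seen for being high in such barcodes. In 148 barcodes (16.8%) of shScr day 3, 143 (20.2%) of shAPC day 3, 212 (14.5%) of shScr day 7 and 129 (6.02%) of shAPC day 7 the 8 genes made up at least 0.6% of nuclear-genome UMIs, with 33 to 64 barcodes within 0.1 percentage points of that bound. The class is a range of a score, and what sets these barcodes apart was not tested. The nuclear members' median share was 3.24%, 3.37%, 3.18% and 3.67% in these barcodes and 2.06%, 2.10%, 1.90% and 2.03% in the rest. This difference follows from how the 8 genes were chosen. Their median UMIs were 36811, 47093, 28687 and 25659, against 51069, 55648, 26401.5 and 22679 in the rest, and their median ribosomal protein share was 26.3 to 29.9% against 32.8 to 39.0%.

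The barcodes of this range were picked by genes high in barcodes of high nuclear share, so a higher nuclear sum is built in. That choice used the nuclear share and not the mitochondrial genes. The values against the rest of the barcodes are therefore descriptions, and no contrast of members, complexes or genomes is read from them. In barcodes of this range the nuclear members' sum was higher by log2 0.60, 0.58, 0.71 and 0.80, with complex I the highest (0.95, 0.86, 1.09 and 1.20) and complex III the lowest (0.28, 0.33, 0.36 and 0.50). Mitochondrial RNA was lower by -0.081, -0.099, -0.13 and -0.13. NDUFC2 was higher by 1.74, 1.67, 1.99 and 2.30, NDUFB6 by 1.51, 1.47, 1.89 and 2.01 and NDUFA12 by 1.78, 1.37, 1.68 and 1.79. The ATP synthase subunit ATP5F1E (-0.18, -0.17, -0.23 and -0.020) and COX7A2L (-0.062, -0.20, -0.095 and -0.19) were not higher in any library, and COX7C read 0.11, 0.23, -0.15 and 0.14. Of the members tested, 57 of 86, 60 of 86, 54 of 87 and 60 of 86 were past 1.5-fold higher than the median gene, where 19.9%, 15.7%, 23.1% and 20.1% of all genes were; nothing is read from this, since the barcodes were picked by it.

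Because this range was least common in shAPC day 7, the comparisons were repeated without it. Its genes were picked for being high in barcodes of high nuclear share. Leaving it out therefore takes out barcodes picked by the outcome, from 6.02% in shAPC day 7 to 20.2% in shAPC day 3. That alone can shift the nuclear values, so the values below are descriptions, and the cause of their shifts was not tested. The nuclear sum in shAPC against shScr was then 0.11 at day 3 and 0.090 at day 7 (0.085 to 0.095), where it had been 0.12 and 0.025, and day 7 against day 3 gave -0.091 in shScr and -0.11 in shAPC. NDUFC2 at day 7 was -0.52 relative to the median gene in place of -0.70 and no longer past 1.5-fold, NDUFB6 was -0.28 in place of -0.49, and NDUFB8 was -0.36 in place of -0.47. COX7C was 0.55 at day 3 and 1.12 at day 7. Members past 1.5-fold were 0 higher (6.19% of all genes) and 2 lower (5.04%) at day 3, which were NDUFB2 (-0.64) and COX7A1 (-0.61), and 1 higher (5.6%) and 0 lower (7.26%) at day 7. Between days they were 0 higher (1.78%) and 4 lower (4.88%) in shScr, and 5 higher (7.05%) and 0 lower (8.67%) in shAPC. The correlations between genomes over the remaining barcodes were -0.18, -0.21, -0.20 and 0.072.

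Other genes of the pathway were read from fixed lists. CYCS (cytochrome c, the carrier between complexes III and IV) and CYC1 (cytochrome c1 of complex III) were higher in shAPC at day 3 (relative 0.24 and 0.17) and lower at day 7 (-0.31 and -0.28). Of the genes that copy and express mitochondrial DNA, 13 of 22 in the files were measured at day 3 and 11 of these were above and 2 below the median gene (median 0.28). At day 7 it was 3 above and 5 below, and from day 3 to day 7 in shAPC 0 of 12 were above. Genes were measured at 20 CPM in either library, so a gene can enter only through the library where it is high. The filter alone can tilt these counts, and nothing is read from them. SUPV3L1, a helicase of mitochondrial RNA turnover, had 227, 787, 339 and 310 UMIs (relative 1.47 at day 3), and it reached 20 CPM only in shAPC day 3. TFAM, which packages mitochondrial DNA, had 892, 1238, 1002 and 1142 UMIs. Both were highest in shAPC day 3.

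The genes of the mitochondrial ribosome had a relative median of 0.11 at day 3 (49 of 70 above) and -0.20 at day 7 (16 of 64 above). Of the citric acid cycle genes 10 of 14 were above the median gene at day 3 and 7 of 13 at day 7, and of the complex IV assembly genes 5 of 13 and 7 of 12. Of the regulators, 2 of 6 were above at day 3 and 1 of 6 at day 7. ESRRA, a nuclear receptor that acts on respiratory genes, had 2213, 2855, 813 and 1334 UMIs, lower at day 7 under both shRNAs (relative -1.34 and -1.15). HIF1A had 13571 to 17605 UMIs and relative values of -0.081 and -0.075 for shAPC against shScr at day 3 and day 7. The lists were chosen with earlier results known. Their counts carry the same limit from the 20 CPM filter and are given beside the median gene with no test.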

How the data were processed

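The authors deposited, for each of the 4 libraries (1 for each shRNA and day), a Cell Ranger matrix of raw UMI counts over 33538 genes on GRCh38 (hg38), from STAR alignments per the labels; the deposited counts carry no normalization, and the annotation release was not given in the sources used here. The file headers name Cell Ranger 3.0.2 (shScr) and 3.0.0 (shAPC). The labels name the 3' version 2 kit and retrovirus, and the study's supplement names the same kit, while its methods text names another kit version and lentivirus. No column of another sample was present. Cell calls are those of the deposited matrices, 1471, 1047, 3652 and 3035 barcodes.

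Counts were summed over barcodes of at least 2000 genes, with and without a limit of 5% MT- UMIs, and scaled to nuclear-genome UMIs (CPM). Ratios of (CPM + 1) were centred on the median of nuclear genes that reached 20 CPM in either library. Printed intervals are exact Poisson or Clopper-Pearson intervals (95%). Reads of 1 molecule share a UMI, and these intervals cover counting error only. With 1 library a group there was no test. Depth was 39700634 to 52109797 UMIs a library. The code was tested on simulated data. Python 3.11.15, scipy 1.17.1, edgeR 4.0.16 and DESeq2 1.42.0 (factors only) were used.

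Named genes were the 13 mitochondrial genes, SDHA to SDHD, the paralog pairs, the 5 highest and 5 lowest nuclear members by shAPC against shScr at each day, the 3 highest and 3 lowest between days, and listed pathway genes of at least 50 UMIs in a library; others named were chosen after their values were seen. Members and lists were chosen with earlier results of these data known. In the files 22 of 23 listed mitochondrial DNA expression genes and 21 of 21 complex IV assembly genes were found (SCO2 under 2 identifiers). A gene that the rule names is not reported here.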

Additional observations from a re-analysis of the deposited data

Results flagged for a closer look

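Several sums for shAPC against shScr had one sign at day 3 and the other at day 7. With 1 library a group the difference between days was not tested. Per nuclear-genome UMI, on the log2 scale, the mitochondrial genes read -0.014 at day 3 and 0.22 at day 7. Mitochondrial over nuclear respiratory chain UMIs, a ratio that no library factor enters, read -0.13 and 0.20. In barcodes of 5% mitochondrial UMIs and over that ratio read -0.15 and -0.16, with no change of sign. In barcodes of 10000 to 50000 UMIs it was above 0 on both days, since the mitochondrial sum (0.20 and 0.20) exceeded the nuclear sum (0.068 and 0.043). The change of sign of the mitochondrial sum was absent in barcodes of 10000 to 50000 UMIs (0.20 on both days), and its day 3 sign turned in the mean over barcodes (0.045) and without the 5% of barcodes with the most UMIs (0.055). Nuclear complex I read 0.20 and -0.14, complex II 0.34 and -0.070, and the assembly factors 0.12 and -0.091. In the other direction, nuclear complex III read -0.018 and 0.15, mitochondrial complex IV -0.048 and 0.20, and mitochondrial complex V -0.11 and 0.23. At day 3 nuclear complex I turned negative with TMM and DESeq2 factors (-0.12 and -0.15) and complex II with DESeq2 factors alone (-0.0083), while the mitochondrial sum, nuclear complex III and mitochondrial complexes IV and V kept their sign. These factors shift every sum of a comparison by the same amount. The assembly factors, lower than nuclear complex I at day 3, therefore turn negative too, and their change of sign is absent on that scale.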

How the results depend on the processing

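No paired analysis was possible because each group has 1 library and the labels give no shared replicate numbers, and for the same reason no replicate could be left out. Every alternative listed for these results was run. For sums the main value's interval covers counting error, for relative medians it comes from the ranked members, and for correlations from the number of barcodes. Of 172 values under the alternatives, 83 stayed within that interval or 1.5 times the count, 77 moved and 12 reversed. The cause was not tested. Below, 4 values in a row are in the order shAPC against shScr at day 3 and day 7, then day 7 against day 3 in shScr and shAPC. For the mitochondrial sum, TMM gave -0.33, 0.16, 0.23 and 0.72 and DESeq2 factors -0.37, 0.14, 0.22 and 0.73. Barcodes under the 5% limit gave -0.044, 0.15, 0.039 and 0.23. Barcodes of 10000 to 50000 UMIs gave 0.20 (reversed), 0.20, 0.22 and 0.21, the mean over barcodes 0.045 (reversed), 0.20, 0.36 and 0.51, and leaving out the 5% of barcodes with the most UMIs 0.055 (reversed), 0.22, 0.29 and 0.45. A minimum of 200 genes and 500 UMIs gave 0.21 at day 7 and 0.26 and 0.48 between days. Without the barcodes of the 8-gene range, an alternative chosen after seeing the data, it was -0.0092, 0.21, 0.26 and 0.48.

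For the nuclear sum, TMM gave -0.20, -0.043, -0.083 and 0.074 and DESeq2 factors -0.23, -0.063, -0.089 and 0.080, each reversed except in shScr between days. Scaling without ribosomal protein genes gave 0.011, 0.062, -0.038 and 0.013 (the last reversed). Under the 5% limit it was 0.13, -0.0012 (reversed), -0.015 and -0.15. A minimum of 200 genes and 500 UMIs gave 0.11, 0.015, -0.042 and -0.14. Leaving out the 5% of barcodes with the most UMIs gave 0.097, 0.042, -0.072 and -0.13. Leaving out the 8-gene range gave 0.11, 0.090, -0.091 and -0.11. That range was picked for a high nuclear share, so leaving it out is no separate check of the nuclear members, here or below. Barcodes of 10000 to 50000 UMIs gave 0.068, 0.043 and -0.13 for the first 3, and the mean over barcodes 0.095, 0.036 and -0.099. Scaling by total UMIs gave 0.014, -0.070 and -0.18 for the last 3, and structural subunits alone gave 0.032 at day 7 and -0.064 in shScr.

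The members' relative median was 0.028 at day 3 and 0.014 (reversed) at day 7 for members of at least 100 CPM, and 0.081 at day 3 and -0.26 in shAPC with no minimum. Both day 3 values have the other sign from the -0.044 reported, whose interval over the members held 0. Members past 1.5-fold, in both directions together, were 7 at day 3 and 20 in shAPC when not centred on the median gene, 3 and 13 with no minimum, and 2 and 8 in barcodes of 10000 to 50000 UMIs. At day 3 there were 2 at 100 CPM, 0 under the 5% limit and 2 without the 8-gene range, and at day 7 there was 1 under the limit and 1 without the 8-gene range. The share of all genes was not counted for the uncentred, no-minimum, 100 CPM and 10000 to 50000 UMI alternatives. Without centring, every gene also keeps the shift of the median gene. These counts are therefore not read as a result about the members. Past 2-fold there were 0, 1, 0 and 0. The correlation over barcodes was -0.34 (shAPC day 3) and -0.19 (shAPC day 7) under the limit, and -0.13 in shAPC day 7 with 200 genes and 500 UMIs. In barcodes between the lower and upper tertile of UMIs it was -0.12 in shAPC day 3, -0.32 in shScr day 7 and -0.033 in shAPC day 7, and without the 8-gene range it was -0.20 in shScr day 7 and 0.072 in shAPC day 7. Counting error is small beside these shifts, but the depth of the barcodes used moved the mitochondrial sum as given above, and members below 20 CPM were not compared.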
